A study of Musca domestica with 24 samples.

Results

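The levels of 3 nervous system genes of the house fly, Musca domestica, were followed in heads and abdomens of 4 groups of flies. They were IR25a (GeneID 101897550, Muller element B), Mda2 (GeneID 101901641, Muller element E) and para-like (GeneID 101898332, Muller element A), and they were taken by their gene names from the 16540 genes measured. All 3 passed the filter on low values in both tissues, though in abdomens IR25a did so only through males. A Muller element is a chromosome arm whose gene content is conserved among flies.

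The proteins of these genes act at different steps of nerve signalling. IR25a belongs to the ionotropic receptors, ligand-gated channels related to glutamate receptors, and in Drosophila melanogaster its product is a co-receptor that pairs with more selective receptors in sensory neurons. Mda2 encodes an alpha subunit of the nicotinic acetylcholine receptor, the channel that answers acetylcholine at fast excitatory synapses of insects and that neonicotinoid insecticides bind. The reference gene table lists kdr, super-kdr and VSSC as synonyms of para-like, the voltage-gated sodium channel that carries the action potential in neurons and in which knockdown resistance to pyrethroids arises.

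Poly(A) RNA was sequenced from single flies of strain IIIM (3-6), head and abdomen apart, with 3 libraries in each of 4 groups per tissue and 24 in all. The flies had received double-stranded RNA against Md-tra, the house fly transformer gene that female development needs, or against GFP, which flies do not carry and which served as the control. N flies and SR flies were those treated against Md-tra, phenotypic males by their labels, while GFP females and GFP males received the control. The sample titles call the N flies genotypic females that became males and the SR flies genotypic males.

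The headings of the authors' own comparisons go the other way, and place the SR libraries under sex-reversed males and the N libraries under normal males. The authors' log2 fold change for sex-reversed males against GFP females in the abdomen, in the authors' deposited table, matched the ratio of SR to GFP female means within 0.1 for 96.1% of 12131 genes. The 2 groups are therefore called by their codes, N and SR, and no direction below is drawn from their genotype. Because Md-tra is not analysed here, the knockdown was not checked at its target.

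Whole reads could be recovered from the normalized counts, which were therefore taken as reads divided by a size factor for each library. Abdomen libraries held 2689265, 16113838 and 2756581 reads in N, 24100066 to 41657177 in SR, 56719614 to 77407229 in GFP females and 20916287 to 31364368 in GFP males. N replicates 1 and 3 were the shallow ones, where 1 read was worth 7.83 and 7.77 normalized counts. Head libraries held 12080603 to 23355977 reads in N, 17156139 to 62303540 in SR, 27872130 to 35498286 in GFP females and 57096789 to 79454339 in GFP males. SR head replicate 2 stood apart, with a median correlation of 0.835 with the other 11 heads, against 0.868 to 0.930 for those heads. In the authors' deposited table, head fold changes for SR against GFP females matched the mean of SR replicates 1 and 3 within 0.1 for 97.7% of genes, and the mean of all 3 for 27.9%. Of the listed female abdomen markers, bcd, the maternal anterior determinant of Drosophila embryos, averaged 1.69 normalized counts in N abdomens (3 reads in replicate 2 and 0 in the others), 0 in SR, 2837 in GFP female and 0 in GFP male abdomens. The other matched marker, the yolk protein gene yp3, did not follow the sex labels: it had 669 to 3173 normalized counts in N, 6253 to 24021 in SR, 15574, 21.1 and 254 in GFP female and 273 to 1975 in GFP male abdomens. No listed head marker could be matched by name, so the head label was not checked with markers.

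In the abdomen, para-like and IR25a were low in GFP females and far higher in all 3 male groups, while Mda2 was highest in GFP females and low in most males. In the head, para-like was again lower in GFP females than in GFP males, and neither IR25a nor Mda2 passed the limma test in any comparison.

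The sodium channel gene para-like was abundant in all male abdomens and scarce in GFP female ones. N abdomens had 6753, 4522 and 10663 normalized counts. SR abdomens had 16336, 12955 and 12164 normalized counts. GFP female abdomens had 446, 24.7 and 34.4 normalized counts, and GFP male abdomens had 12337, 7031 and 12087. Every male abdomen lay above every GFP female abdomen, N and GFP male abdomens overlapped, SR and GFP male abdomens overlapped, and all N abdomens lay below all SR abdomens. The GFP females themselves differed by 18.0-fold between the highest and the lowest fly, and the low values still rested on 103 and 121 reads.

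For the sex difference under control RNAi, para-like averaged 169 ± 241 normalized counts in GFP female abdomens and 10485 ± 2994 in GFP male abdomens (SD, n = 3 each), so GFP males held 62.2 times as much. The log2 difference of GFP females minus GFP males was -7.10 ± 0.86 (SE), with a limma Benjamini-Hochberg adjusted p = 2.95e-05. Of the 3 genes, 2 were called lower in GFP female abdomens and 0 higher, where 44.3% of all 12537 tested genes were called lower and 33.4% higher. A call in this tissue was thus common among genes at large. IR25a, called beside para-like, passed the filter only through male abdomens, so the filter favoured its direction. A library held the RNA of a whole abdomen or head, so fewer cells of a type and less RNA per cell cannot be told apart.

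Both Md-tra RNAi groups had more para-like RNA in the abdomen than GFP females. N abdomens averaged 7313 ± 3109 normalized counts against 169 ± 241 in GFP females, with a log2 difference of 6.54 ± 0.86 (limma Benjamini-Hochberg adjusted p = 4.64e-05). SR abdomens averaged 13819 ± 2216 against the same GFP females, with a log2 difference of 7.53 ± 0.86 (limma Benjamini-Hochberg adjusted p = 2.19e-05). These comparisons share the GFP female libraries. Their size depended on single flies. Without GFP female replicate 1, the fly with 446 normalized counts, the log2 differences of para-like were -8.39 for GFP females minus GFP males, 7.83 for N minus GFP females and 8.83 for SR minus GFP females. Leaving out 1 fly at a time, they ran from -8.39 to -6.33, 5.77 to 7.83 and 6.77 to 8.83. In each of the comparisons with N and SR, 2 of the 3 genes were called higher and 0 lower, where 42.1% of genes were called higher for N and 43.7% for SR.

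Against GFP males, para-like did not pass the test in N or SR abdomens. The log2 difference was -0.56 for N minus GFP males (95% interval -2.46 to 1.33, limma Benjamini-Hochberg adjusted p = 0.712). It was 0.43 for SR minus GFP males (interval -1.46 to 2.33, limma Benjamini-Hochberg adjusted p = 0.999). For this comparison, here and below, the fit leaves aside a pairing of the abdomens of these groups by title number. N minus SR gave -0.99 (interval -2.89 to 0.90, limma Benjamini-Hochberg adjusted p = 0.461), although the values of the 2 groups did not overlap. The intervals are wide, and differences of several-fold lie inside each of them.

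IR25a had few reads in the abdomen, and its lowest values were again those of GFP females. N abdomens had 259, 147 and 381 normalized counts, from 33, 87 and 49 reads. SR abdomens had 95.9, 47.1 and 83.0 normalized counts, from 110, 78 and 78 reads. GFP female abdomens had 1.65, 0.720 and 0.569 normalized counts, from 8, 3 and 2 reads, and GFP male abdomens had 54.5, 68.3 and 104, from 38, 85 and 106 reads. All N abdomens lay above all SR and all GFP male abdomens, though how many of all genes did the same was not counted. SR and GFP male abdomens overlapped, and GFP female abdomens held only traces. A library with no read of a gene allows up to 3 reads, which is 0.619 to 0.853 normalized counts in the GFP female abdomens, so these traces lie close to the limit of detection.

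IR25a averaged 0.980 ± 0.586 normalized counts in GFP female abdomens and 75.6 ± 25.4 in GFP male abdomens (SD, n = 3 each). The log2 difference of GFP females minus GFP males was -5.26 ± 0.51 (SE; limma Benjamini-Hochberg adjusted p = 6.79e-06). With values this low its size depends on the constant added before taking logs, at -5.70 with 0.5 added and -3.71 with 5 added. DESeq2 on recovered reads, which adds no such constant, gave -6.23. N minus GFP females was 6.99 ± 0.51 (limma Benjamini-Hochberg adjusted p = 8.89e-07), and SR minus GFP females was 5.25 ± 0.51 (limma Benjamini-Hochberg adjusted p = 7.58e-06). IR25a passed the filter only through male abdomens. The filter thus favoured the directions of these calls, and of the interactions below, so their p-values are no independent support.

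The male groups split for IR25a. N abdomens averaged 262 ± 117 normalized counts, against 75.3 ± 25.3 in SR abdomens and 75.6 ± 25.4 in GFP male abdomens. N minus SR was 1.74 ± 0.51 with a limma Benjamini-Hochberg adjusted p = 0.0438, where 8.56% of genes were called higher in N and IR25a was the only one of the 3 genes to be called. N minus GFP males was 1.73 (95% interval 0.61 to 2.85) with a limma Benjamini-Hochberg adjusted p = 0.0580 and did not pass, where 8.88% of all genes were called in either direction. SR minus GFP males was -0.01 (interval -1.13 to 1.10, limma Benjamini-Hochberg adjusted p = 0.999), where 0.16% of genes were called.

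The call for IR25a in N abdomens depended on the test and on single flies. The edgeR quasi-likelihood test on recovered reads gave Benjamini-Hochberg adjusted p = 0.0642 for N minus SR and 0.0810 for N minus GFP males, whereas DESeq2 gave 0.00293 and 0.00470. In the authors' deposited table the log2 fold changes were 1.77 for N against SR and 1.76 for N against GFP males, with adjusted p-values of 0.00328 and 0.00508. Leaving out N replicate 1 or 3, or any SR fly, ended the limma call for N minus SR, with log2 differences of 1.42 to 1.945 in those fits, while without N replicate 2 the value was 2.11 and kept the call. Without both shallow N libraries the value was 1.02 and the limma Benjamini-Hochberg adjusted p = 0.456, with a single N fly left that is assumed to vary like the other groups. The part of the shallow N libraries in the difference was not tested beyond these values.

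**Figure D1:**
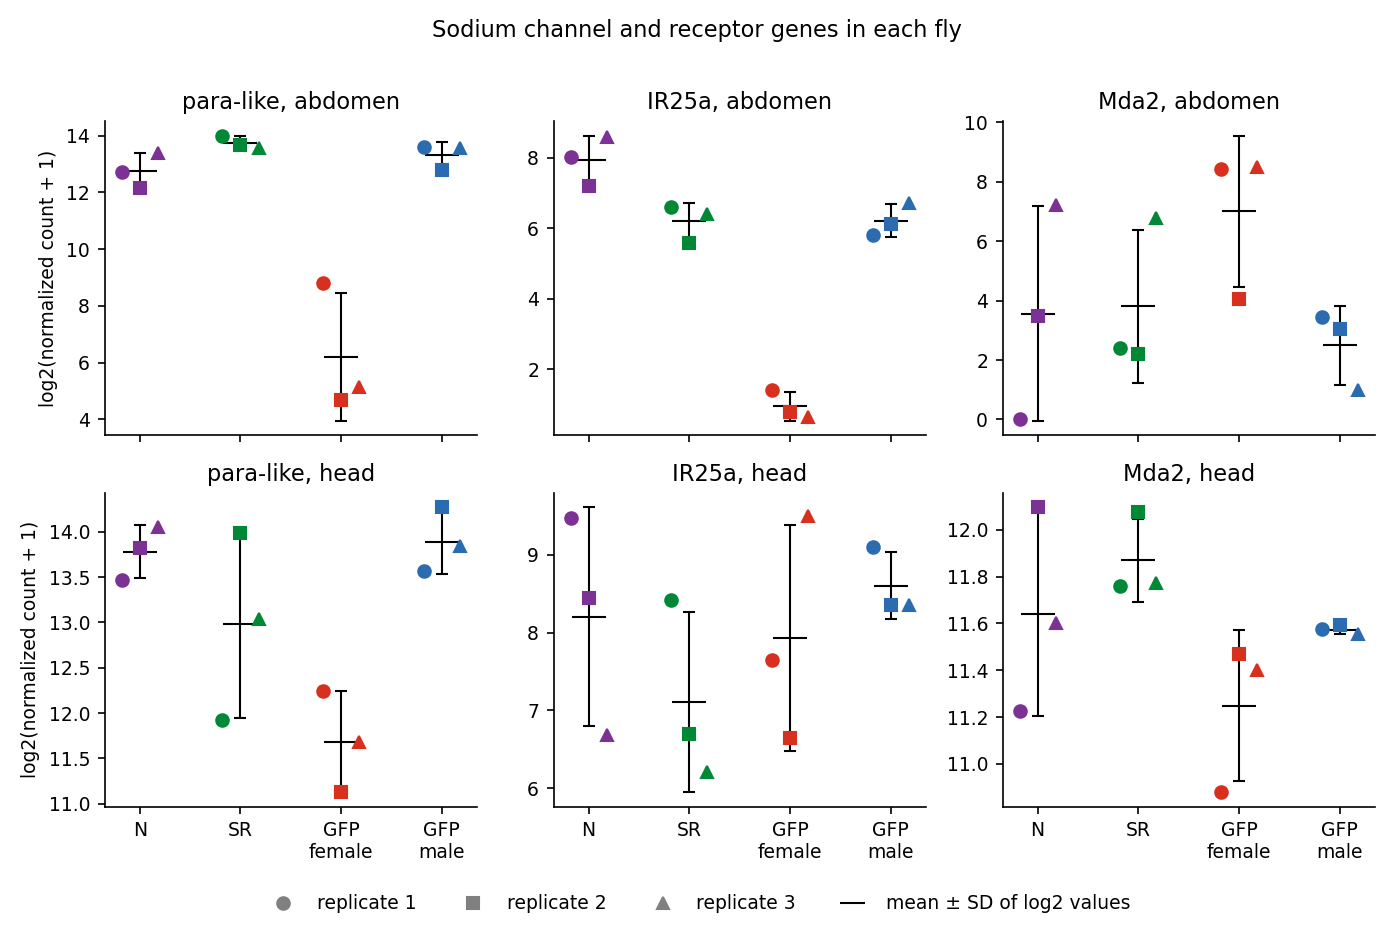
Normalized counts of IR25a, Mda2 and para-like in each of the 12 abdomens and 12 heads, as log2(normalized count + 1), with groups from left to right N, SR, GFP females and GFP males. Points are single flies, and bars give the mean ± SD of the log2 values. Para-like and IR25a are lowest in GFP female abdomens, at 24.7 to 446 and 0.569 to 1.65, while Mda2 spreads widely between flies in the abdomen and narrowly in the head.

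Mda2 differed from the other genes in the abdomen, since its highest values were in GFP females. N abdomens had 0, 10.1 and 148 normalized counts, from 0, 6 and 19 reads. SR abdomens had 4.36, 3.62 and 109.6 normalized counts, from 5, 6 and 103 reads. GFP female abdomens had 345, 15.6 and 365 normalized counts, from 1673, 65 and 1283 reads, and GFP male abdomens had 10.05, 7.24 and 0.979, from 7, 9 and 1 reads. One fly in each of the N and SR groups was high, 1 GFP female was low, and all GFP females lay above all GFP males. The N library with no read allows up to 23.5 normalized counts, more than any GFP male held, so this fly cannot be placed below the GFP males.

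GFP female abdomens averaged 242 ± 196 normalized counts of Mda2 and GFP male abdomens 6.09 ± 4.64 (SD, n = 3 each). GFP females minus GFP males was 4.50 ± 1.92 (SE; 95% interval 0.27 to 8.74), with a limma Benjamini-Hochberg adjusted p = 0.0504 that just missed the threshold. The count tests on recovered reads placed it below the threshold, with Benjamini-Hochberg adjusted p = 0.0173 by the edgeR quasi-likelihood test and 0.00144 by DESeq2. In the authors' deposited table the log2 fold change was -5.32 for males against females, with an adjusted p of 0.00157. Without GFP female replicate 2, the low fly, the limma difference was 5.98 and passed with a Benjamini-Hochberg adjusted p = 0.0218.

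For Mda2 in the abdomen, no comparison with an Md-tra RNAi group passed with all flies in the fit. N minus GFP females was -3.44 (95% interval -7.67 to 0.80, limma Benjamini-Hochberg adjusted p = 0.122) and SR minus GFP females was -3.20 (interval -7.43 to 1.04, limma Benjamini-Hochberg adjusted p = 0.148). The N value passed when the high N fly, replicate 3, or the low GFP female, replicate 2, was left out, at -5.26 and -4.91 on the log2 scale. N minus GFP males was 1.07 (interval -3.17 to 5.30), SR minus GFP males 1.31 (interval -2.93 to 5.54) and N minus SR -0.24 (interval -4.48 to 3.99), with limma Benjamini-Hochberg adjusted p = 0.757, 0.999 and 0.946. Changes of several-fold in either direction lie inside these last intervals.

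Whether the response to Md-tra RNAi differed with genotype was asked with an interaction, the RNAi difference in genotypic females minus that in genotypic males. By the sample titles it is N minus GFP females, less SR minus GFP males. In the abdomen this was 7.004 ± 0.72 for IR25a and 6.10 ± 1.21 for para-like (SE; limma Benjamini-Hochberg adjusted p = 2.22e-05 and 0.00124). By the column headings, with N and SR exchanged, it was 3.52 ± 0.72 for IR25a and 8.09 ± 1.21 for para-like (limma Benjamini-Hochberg adjusted p = 0.00171 and 0.000291). Under both readings 2 of the 3 genes were called higher and 0 lower, where 37.2% of genes were called higher by the titles and 35.8% by the headings. Each reading contains the difference between GFP males and GFP females, and they differ only in the sign given to N minus SR. A call under both is therefore not separate from the sex difference under control RNAi, and no conclusion about genotype is drawn. Mda2 gave -4.75 and -4.26, with limma Benjamini-Hochberg adjusted p = 0.142 and 0.188.

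**Figure D2:**
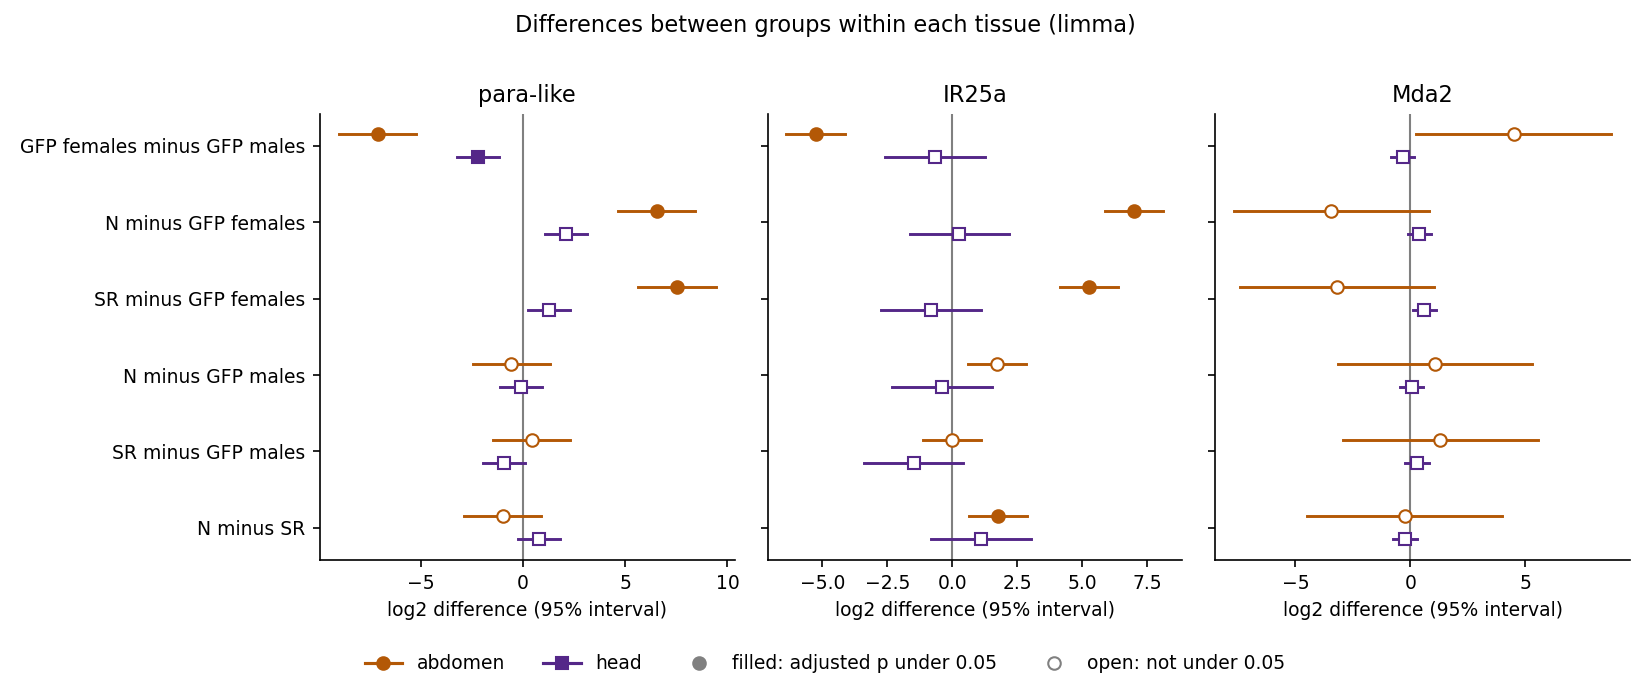
Log2 differences of the 3 genes in the 6 comparisons of groups, 1 panel per gene, with abdomens as circles and heads as squares. Points are limma estimates on log2(normalized count + 1), lines their 95% intervals, and filled points passed the Benjamini-Hochberg threshold of 0.05. In the abdomen IR25a and para-like lie far from 0 wherever GFP females enter, and the only filled head point is para-like for GFP females minus GFP males, at -2.21.

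In the head, para-like was again low in GFP females. N heads had 11369, 14418 and 16997 normalized counts. SR heads had 3878, 16272 and 8427 normalized counts. GFP female heads had 4855, 2233 and 3287 normalized counts, and GFP male heads had 12129.7, 19754 and 14661. All N and all GFP male heads lay above all GFP female heads, N and GFP male heads overlapped, and the SR heads ran over a 4.20-fold range and overlapped both control groups.

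GFP female heads averaged 3458 ± 1320 normalized counts of para-like and GFP male heads 15515 ± 3883 (SD, n = 3 each), so GFP males held 4.49 times as much. GFP females minus GFP males was -2.21 ± 0.46 (SE), with a limma Benjamini-Hochberg adjusted p = 0.0116. It was the only call among the 3 genes, where 14.6% of the 12237 genes tested were called lower in GFP female heads. Without GFP male replicate 2 the value was -2.02 and the limma Benjamini-Hochberg adjusted p = 0.0589, which ended the call. In the authors' deposited table the log2 fold change was 2.17 for males against females, with an adjusted p of 1.03e-06.

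N heads averaged 14261 ± 2818 normalized counts of para-like against 3458 ± 1320 in GFP female heads, a difference of 2.10 (95% interval 1.07 to 3.12). It did not pass, with a limma Benjamini-Hochberg adjusted p = 0.0699 where 0.907% of all genes were called and 0 of the 3 genes. DESeq2 on recovered reads gave a Benjamini-Hochberg adjusted p = 0.00161 and the edgeR quasi-likelihood test 0.101. SR heads averaged 9526 ± 6269, and SR minus GFP females was 1.30 (interval 0.27 to 2.33, limma Benjamini-Hochberg adjusted p = 0.212), where 0.163% of genes were called. Without SR replicate 2, the head that stood apart, it was 0.80 (limma Benjamini-Hochberg adjusted p = 0.332).

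Against GFP male heads, para-like gave -0.11 for N (95% interval -1.14 to 0.92) and -0.91 for SR (interval -1.94 to 0.12), with limma Benjamini-Hochberg adjusted p = 0.899 and 0.251. Without SR replicate 2 the SR value was -1.41 (limma Benjamini-Hochberg adjusted p = 0.0916). N minus SR was 0.80 with all flies and 1.30 without SR replicate 2, and did not pass in either fit. Calls were 11.7% of genes for N minus GFP males, 4.49% for SR minus GFP males and 0.302% for N minus SR, and 0 of the 3 genes were among them.

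The head interaction of para-like passed under the titles and did not under the headings. By the titles it was 3.00 ± 0.66 (SE; limma Benjamini-Hochberg adjusted p = 0.0435), where 1.54% of genes were called higher. The edgeR quasi-likelihood test gave 2.75 with a Benjamini-Hochberg adjusted p = 0.0600, and leaving out any 1 of 9 of the 12 flies ended the limma call. Those flies were all GFP males, all N flies, GFP females 2 and 3 and SR replicate 3, and the values without them ran from 2.72 to 3.17. By the headings it was 1.41 with a limma Benjamini-Hochberg adjusted p = 0.169, where 11.1% of genes were called in either direction.

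Mda2 lay between 1881 and 4376 normalized counts in every head. N heads had 2397, 4376 and 3105 normalized counts. SR heads had 3466, 4313 and 3497 normalized counts. GFP female heads had 1881, 2835 and 2700.4 normalized counts, and GFP male heads had 3049, 3084 and 3007, a coefficient of variation of 1.27%. GFP females lay below all GFP males and below all SR heads, and N heads overlapped every other group.

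GFP females averaged 2472 ± 516 normalized counts of Mda2 in the head and GFP males 3046 ± 38.8 (SD, n = 3 each). The difference of -0.32 did not pass (95% interval -0.83 to 0.18, limma Benjamini-Hochberg adjusted p = 0.313). SR heads averaged 3759 ± 480, and SR minus GFP females was 0.62 (interval 0.12 to 1.12, limma Benjamini-Hochberg adjusted p = 0.225). N heads averaged 3292 ± 1003, and N minus GFP females was 0.39 (limma Benjamini-Hochberg adjusted p = 0.507). N minus GFP males was 0.07, SR minus GFP males 0.30 and N minus SR -0.23, with limma Benjamini-Hochberg adjusted p = 0.874, 0.441 and 0.800.

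IR25a varied widely between flies of 1 group in the head. N heads had 711, 347 and 102 normalized counts. SR heads had 342, 103 and 73.1 normalized counts. GFP female heads had 199.9, 98.7 and 726 normalized counts, and GFP male heads had 549, 326 and 327. All 4 groups overlapped, with a highest over lowest fly of 6.96 in N, 4.68 in SR, 7.35 in GFP females and 1.69 in GFP males. GFP females minus GFP males was -0.67 (95% interval -2.59 to 1.24) and SR minus GFP males was -1.49 (interval -3.41 to 0.42), with limma Benjamini-Hochberg adjusted p = 0.593 and 0.306. N minus GFP females was 0.27, SR minus GFP females -0.82, N minus GFP males -0.40 and N minus SR 1.09, with limma Benjamini-Hochberg adjusted p = 0.935, 0.684, 0.797 and 0.747. The sex difference seen in abdomens was not detectable in heads, and whether the tissues differ in it was not tested, because their tables were normalized separately.

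The tissues can be set side by side only as reads of a gene per 1000000 recovered reads (RPM), with no test. Mda2 had a larger mean share of the reads in heads than in abdomens in every group, which does not give amounts of RNA. Its head level was 104 ± 37.3 RPM in N, 113 ± 5.53 in SR, 68.6 ± 16.7 in GFP females and 103 ± 3.58 in GFP males. Its abdomen level was 2.42 ± 3.88 in N, 1.53 ± 2.38 in SR, 15.1 ± 12.2 in GFP females and 0.219 ± 0.161 in GFP males (SD, n = 3 each). The head to abdomen ratio of these means was lowest in GFP females, at 4.56, and 43.1 in N, 73.8 in SR and 472 in GFP males.

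For IR25a and para-like the head to abdomen ratio varied between groups. IR25a stood at 9.99 ± 10.6 RPM in GFP female heads against 0.0608 ± 0.0371 in GFP female abdomens, whereas N heads and N abdomens were both at 11.8. In GFP males IR25a had 13.5 ± 4.06 in heads against 2.76 ± 0.969 in abdomens. The channel gene para-like had a head to abdomen ratio of 9.09 in GFP females, 1.37 in N, 0.499 in SR and 1.41 in GFP males. N abdomens held 328 ± 166 and SR abdomens 541 ± 82.1 RPM of it, against 10.5 ± 15.1 in GFP females and 376 ± 84.8 in GFP males. With the 100 genes of most reads in each library left out of the total, head to abdomen ratios in GFP females were 12.3 for para-like, 214 for IR25a and 6.21 for Mda2.

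**Figure D3:**
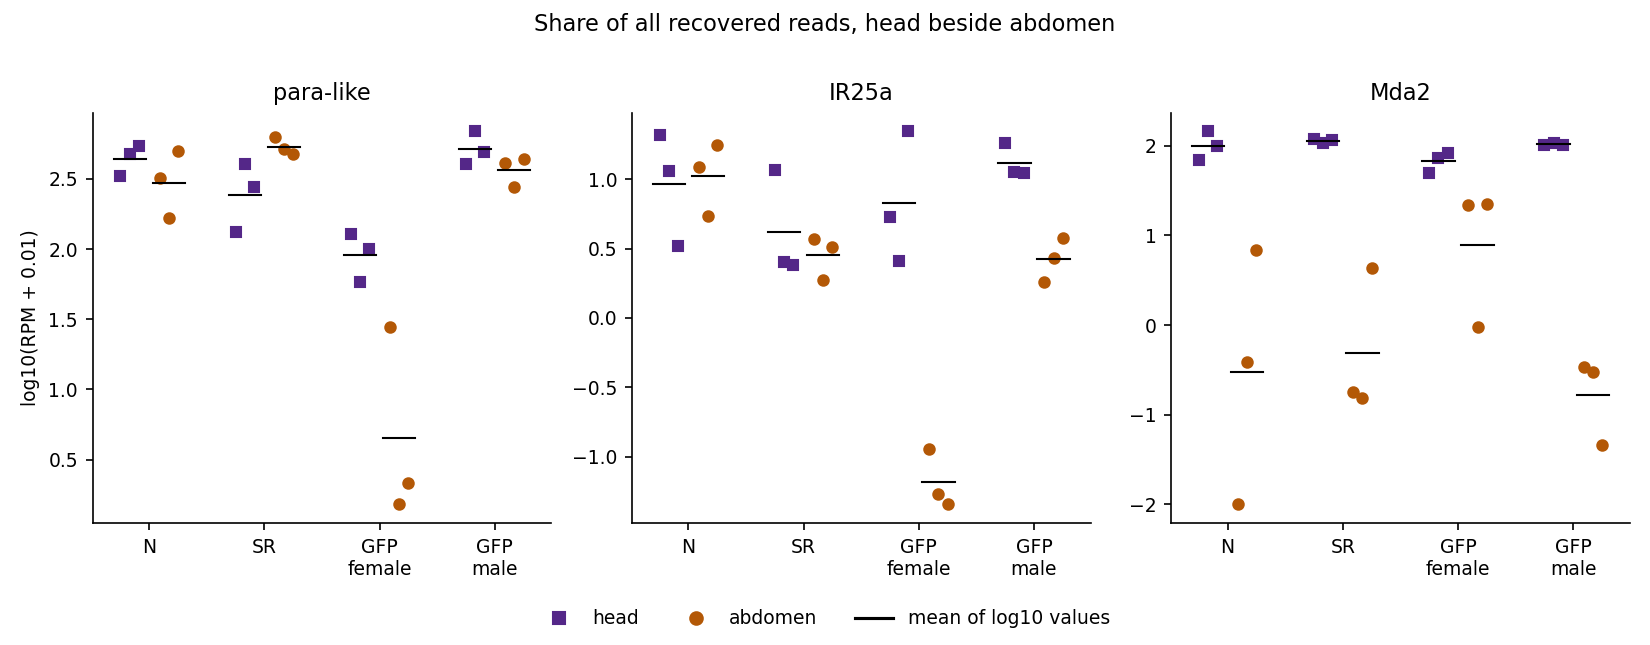
Reads per 1000000 recovered reads (RPM) of IR25a, Mda2 and para-like in heads (squares) and abdomens (circles), as log10(RPM + 0.01), with groups from left to right N, SR, GFP females and GFP males. Points are single flies and bars the mean of the log10 values. Mda2 is higher in the head in every group, while para-like in GFP females has means of 95.7 in heads and 10.5 in abdomens.

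Besides the 3 genes, 4 others of neural signalling could be matched by symbol or synonym from a list of 65 names, and 2 of them had enough counts to be tested in the abdomen. Both were called lower in GFP females than in GFP males, and both were called higher in N and in SR than in GFP females. Such calls were common over all genes in this tissue, at 44.3% lower in GFP females than in GFP males, and 42.1% higher in N and 43.7% higher in SR than in GFP females. For nAChRbeta3, a beta subunit of the nicotinic receptor, N abdomens had 830, 652 and 754 normalized counts and SR abdomens 337, 109 and 311. GFP female abdomens had 19.4, 3.36 and 8.25, and GFP male abdomens 298, 121 and 161. All N abdomens lay above all SR and all GFP male abdomens, as for IR25a, but how many of all genes did the same was not counted. N minus GFP males was 2.04 and N minus SR 1.72, and neither passed (limma Benjamini-Hochberg adjusted p = 0.0615 and 0.0832). The part of the shallow N libraries in this order was not tested. LOC101890429, which the reference gene table pairs with the acetylcholinesterase synonyms ace and ache, averaged 61.3 in N, 69.6 in SR, 0.515 in GFP females and 37.3 in GFP males.

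Median log2 differences of GFP females minus GFP males in the abdomen were -5.26 over the 3 genes and -4.47 over these 2. Over all genes tested the median was -0.61. The 3 genes did not share a direction, with IR25a at -5.26, para-like at -7.10 and Mda2 at 4.50. With their low values in GFP females, IR25a, LOC101890429 and nAChRbeta3 could pass the filter only through male abdomens. The filter thus favoured negative values for such genes, and no conclusion is drawn from these medians. In the head 3 of the 4 other genes were tested and 0 passed in any of the comparisons. MdRdl, the GABA-gated chloride channel gene, had 152, 259 and 126 normalized counts in N heads and 112, 1728 and 98.0 in SR heads, the 1728 in the SR head that stood apart. It had 16.2, 9.34 and 25.9 in GFP female heads and 16.1, 25.1 and 24.3 in GFP male heads. Every Md-tra RNAi head lay above every GFP head for MdRdl, and how many of all genes did the same was not counted. The limma Benjamini-Hochberg adjusted p-values of 0.0572 to 0.136 did not pass. The edgeR quasi-likelihood test gave Benjamini-Hochberg adjusted p = 0.0393 for SR minus GFP males and 0.0771 for N minus GFP males. Against GFP females it gave 0.0963 for SR and 0.194 for N. Mda6, an alpha subunit gene of the nicotinic receptor, was too low to be tested in either tissue.

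**Figure D4:**
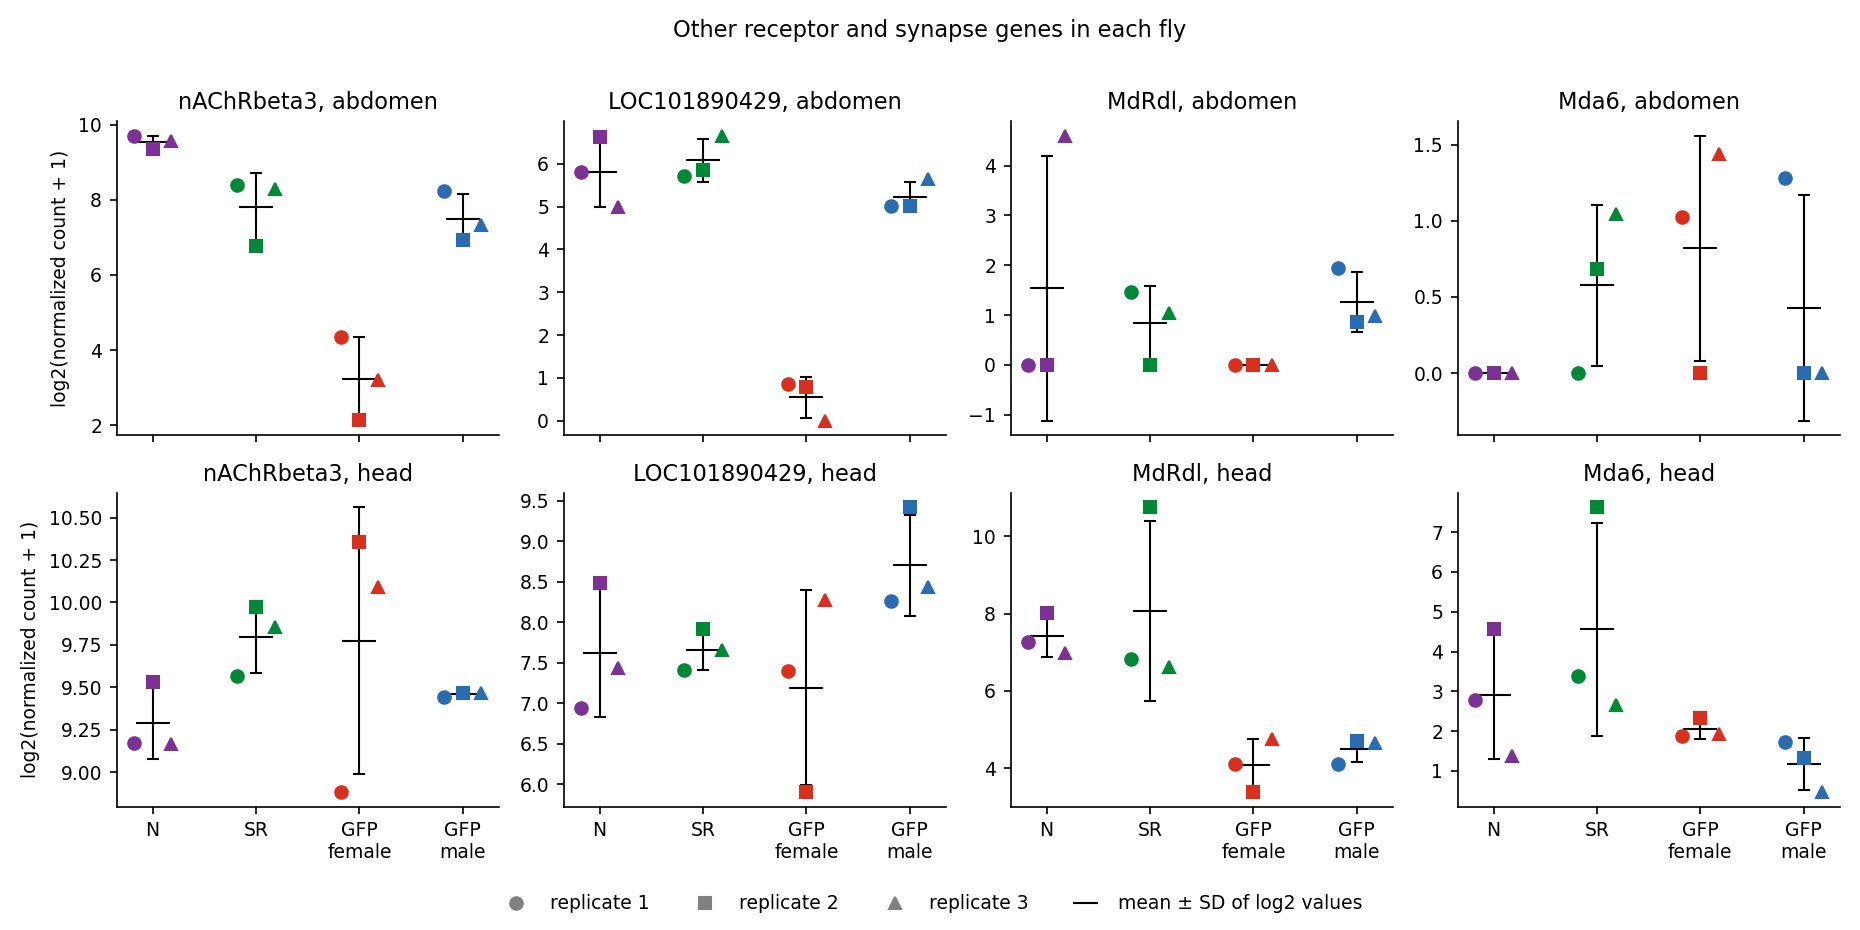
Normalized counts of the other matched neural genes in single flies, abdomen and head, as log2(normalized count + 1), with groups from left to right N, SR, GFP females and GFP males. Points are single flies, and bars give the mean ± SD of the log2 values. In abdomens nAChRbeta3 is lowest in GFP females, at 3.36 to 19.4, and in heads MdRdl lies at 98.0 to 1728 in Md-tra RNAi flies and at 9.34 to 25.9 in GFP flies.

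The genes whose levels ran most like those of the 3 genes were found by Pearson correlation of log2(normalized count + 1) over the 12 libraries of a tissue, which share groups and depth. In the abdomen the closest to para-like were LOC101892724 (Muller element A, r = 0.998) and LOC101889119 (Muller element E, r = 0.997), and 1909 genes reached 0.9. The closest to IR25a were LOC101895887 and LOC101899832, both on Muller element B with r = 0.994, among 2105 genes at 0.9 or above. LOC101895887 averaged 11733 in N abdomens, 2042 in SR, 2.28 in GFP females and 1837 in GFP males. It was picked by its correlation with IR25a in these same libraries, so a like order of groups came with the choice. Mda2 had a single gene at 0.9 or above in the abdomen, LOC101897842 (Muller element E, r = 0.925), followed by LOC101895576 (Muller element D, r = 0.866).

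In the head close partners were few, with 6 genes at 0.9 or above for para-like, 4 for IR25a and 7 for Mda2. The closest to para-like were LOC101901644 and LOC101887864, both on Muller element D with r = 0.921. LOC101901644 averaged 434 normalized counts in N heads, 112 in SR, 30.1 in GFP females and 451 in GFP males. The closest to IR25a were LOC101895134 (r = 0.927) and LOC101898368 (r = 0.915), both on Muller element C, and the closest to Mda2 were LOC101894446 (Muller element A, r = 0.969) and LOC101900296 (r = 0.942).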

How the data were processed

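Poly(A) RNA libraries were made from heads and abdomens of single flies with a stranded kit, per the labels' protocols. The tools listed, per the submitters' processing notes, are HISAT2, HTSeq 0.9.1, DESeq2 1.16.1 and CASAVA 1.8, and no role is stated for any. Build and annotation were not given in the sources used here. Each tissue has its own deposited table of normalized counts, a signal the authors made by dividing read counts by 1 size factor per library, per the file headers. The deposited tables also give log2 fold changes, and p-values after adjustment, for comparisons of the authors' own.

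The design assumed either raw or normalized counts, and the normalized unit decided for limma. Values were taken as log2(normalized count + 1), which understates changes of genes with few reads. Genes were kept when at least 3 of 12 libraries reached 10, which left 12537 of 16540 genes in the abdomen and 12237 in the head. Group means were compared with limma 3.58.1 in R 4.3.3, with a trended prior, over all 12 libraries of a tissue without a block. Benjamini-Hochberg adjustment ran over all kept genes, with a threshold of 0.05. Divided by the worth of 1 read in its library, 100% of the values above 0 came out whole (tolerance 0.001). edgeR 4.0.16 and DESeq2 1.42.0 were run on these reads. Floors of 3 reads cover counting error only. The labels call the flies biological replicates.

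Deviations from the group means were correlated between SR and GFP male abdomens with the same title number, with correlations of 0.18 to 0.46 over 3 pairs, so the title numbers were taken to pair those groups. The values reported for SR minus GFP males in the abdomen come from the fit without a block and leave this pairing aside. None of the 3 genes was called in that comparison under any of the 17 alternatives, of which the replicate block was 1. No other pair of groups had every correlation over 0.1. The 3 genes, the gene lists and the tests were chosen with earlier results of these data known. The genes named besides the 3 are the matched list genes and, per gene and tissue, the 2 genes with the highest correlation. Gr2 and pdf are named as well, and were chosen after their values were seen. Paralogs and overlapping genes may share reads, which the tables do not resolve.

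Lists of neural, head, female abdomen and male abdomen names held 65, 16, 10 and 6 names and matched 7, 0, 2 and 0 genes by symbol or reference synonym. The 2 female abdomen matches were bcd and yp3. The reference table's coordinates were not used.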

Additional observations from a re-analysis of the deposited data

Results flagged for a closer look

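The interaction passed the limma test for IR25a and para-like in the abdomen under both readings of the groups. Both readings contain the difference between GFP males and GFP females, so they are not a result separate from it. By the titles the log2 interactions were 7.004 for IR25a and 6.10 for para-like. By the column headings they were 3.52 for IR25a and 8.09 for para-like. In the head the interaction of para-like by the titles was 3.00 and rested on most single flies.

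For Mda2, GFP females lay above all GFP males in the abdomen and below all GFP males in the head. The log2 differences of GFP females minus GFP males were 4.50 in the abdomen and -0.32 in the head. Neither passed the limma test, and the difference between the tissues was not tested. Of all genes tested, 77.7% were called in either direction in the abdomen and 25.6% in the head. In the head 74.1% of genes differed by at least as much as Mda2. How many genes separate the sexes in opposite directions in the tissues was not counted.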

How the results depend on the processing

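Over the alternatives, 817 of 891 values of the 3 genes kept their direction and side of the threshold, 26 lost the call, 20 gained one and 28 changed sign. In the abdomen, IR25a and para-like kept their calls in every comparison with GFP females and in both interactions, under every alternative run. The causes of the changes below were not tested, except that fewer flies remain where a fly is left out.

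Calls were gained for Mda2 in GFP females minus GFP males, abdomen, with edgeR (5.85), DESeq2 (5.31), pseudocount 5 (3.75), TMM scaling (5.01), the replicate block and the compared groups alone (4.50 each). They were gained for its interactions with DESeq2 (-4.91 by titles, -5.72 by headings) and edgeR (-6.19 by headings). For IR25a in N minus GFP males, DESeq2 (1.76) and pseudocount 5 (1.67) gained it. In heads para-like gained it in N minus GFP females with DESeq2 (2.04) and array weights (2.09), in SR minus GFP females with DESeq2 (1.46) and in SR minus GFP males with array weights (-1.06).

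Calls were lost for IR25a in N minus SR, abdomen, with edgeR (1.76), pseudocount 0.5 (1.75), no filter and the compared groups alone (1.74 each), TMM scaling (1.71), the block by library code number (1.65), array weights (1.44) and without both shallow N abdomens (1.02), an alternative chosen after seeing the data. The head interaction of para-like by the titles lost it with edgeR (2.75), no filter and the replicate block (3.00 each).

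Signs changed, with no call on either side, for IR25a in SR minus GFP males, abdomen, with edgeR (0.014), TMM scaling (0.0056) and array weights (0.15). They changed for Mda2 in N minus SR, abdomen, with edgeR (0.35), DESeq2 (0.41), pseudocount 5 (0.11) and array weights (0.66), and in N minus GFP males with the code number block (-0.33). In heads they changed for IR25a in GFP females minus GFP males (0.23) and N minus GFP females (-0.43) with array weights, and in N minus GFP males with the code number block (0.038).

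Leaving out 1 fly at a time in the abdomen, Mda2 ran from 3.75 to 5.98 in GFP females minus GFP males, -5.26 to -1.66 in N minus GFP females, -0.76 to 2.85 in N minus GFP males, -0.18 to 2.11 in SR minus GFP males, -2.07 to 1.54 in N minus SR and -6.57 to -2.96 in the interaction by titles. IR25a ran from 1.41 to 2.09 in N minus GFP males, -0.22 to 0.29 in SR minus GFP males and 1.42 to 2.11 in N minus SR. In heads, para-like ran from -2.49 to -1.93 in GFP females minus GFP males, -0.27 to 0.077 in N minus GFP males and 2.47 to 3.51 in the interaction by titles. IR25a ran from -0.37 to 1.06 in N minus GFP females, -1.04 to 0.36 in N minus GFP males and -1.18 to 0.36 in the interaction by headings, and Mda2 from -0.16 to 0.28 in N minus GFP males and -0.13 to 0.30 in the interaction by titles.

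Outside SR and GFP male abdomens the title numbers did not pair the groups. With the replicate block Mda2 gained a call in GFP females minus GFP males, abdomen, and para-like lost its call in the head interaction by titles. No other call of the 3 genes changed with this block. Counts of called genes over the alternatives ran from 0 to 2250 in N minus GFP males (1113 as reported), 1 to 268 in SR minus GFP males (20) and 38 to 2885 in N minus SR (1832) in the abdomen. In heads they ran from 572 to 5049 in GFP females minus GFP males (3137), 30 to 611 in N minus GFP females (111), 0 to 871 in SR minus GFP females (20), 102 to 4448 in N minus GFP males (1429), 39 to 2911 in SR minus GFP males (550), 1 to 203 in N minus SR (37), 108 to 1299 in the interaction by titles (296) and 0 to 4069 in that by headings (1362). TMM scaling moved the median of all genes by 0.51 in GFP females minus GFP males, -0.50 in N minus GFP females and -0.48 in SR minus GFP females in the abdomen. Depth limits Mda2 in N abdomens, where the shallow libraries allow no value below 23.3 normalized counts to be told from none. IR25a lay above this floor in those libraries, at 259 and 381 normalized counts, but on only 33 and 49 reads.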

Other observations

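Gr2 and pdf, which are outside the list and were chosen after their values were seen, gave further values, as did the listed gene Mda6. Gr2, a gustatory receptor by its name, had 889.7, 395 and 81.8 normalized counts in N heads, 284, 27.3 and 73.1 in SR heads, 35.1, 338 and 391 in GFP female heads and 395, 212 and 193 in GFP male heads. Its highest over lowest fly was 10.9 in N, 10.4 in SR, 11.1 in GFP females and 2.05 in GFP males. In each of these groups that of IR25a was smaller. Mda6 had 197 normalized counts in SR head replicate 2, which is the head that stood apart, and at most 22.7 in any other head. The neuropeptide gene pdf averaged 1342 ± 377 normalized counts in N heads, 1759 ± 466 in SR heads, 807 ± 415 in GFP female heads and 818 ± 140 in GFP male heads (SD, n = 3 each).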
